A study of Mus musculus with 12 samples.

Results

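The 79 genes that encode proteins of the cytosolic ribosome were followed across 12 RNA sequencing libraries of 4T1-LUC mouse mammary tumours. They are the rows of the deposited gene table whose symbol is Rpl, Rps or Rplp followed by a number and at most one of the letters a, x or l, which gave 79 of 21899 genes: 30 for the small (40S) subunit and 49 for the large (60S) subunit. The rule used names only and no measured value, and it leaves out the kinase genes Rps6k and the pseudogenes. After genes with low counts were removed, 13638 genes were tested, among them 75 of the 79. All 30 small subunit genes and 45 large subunit genes were tested, and Rpl3l, Rpl39l, Rpl10l and Rpl24 were not.

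4T1 is a breast cancer line of BALB/c mice, and the cells were grown as tumours under the skin of BALB/c hosts aged 4 to 6 weeks. The combination group received curcumin at 100 mg/kg in corn oil by gavage and then swam for 30 min, the curcumin group received the same gavage without swimming, and the swimming group received corn oil and then swam for 30 min. The control group bore the same tumours and received corn oil, so all 4 groups carry the tumour and the vehicle. Each group had 3 libraries, named here by group and replicate number. The labels do not say whether the 3 came from separate animals, and each p-value therefore reflects nothing but how these samples vary, and that variation may be technical.

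The ribosome reads messenger RNA in its small subunit and joins amino acids in its large subunit. Most of its proteins are needed in a single copy per particle, and their genes are expressed in every dividing cell at high and roughly coordinated levels. In mammals their messenger RNAs start with a run of pyrimidines, the terminal oligopyrimidine motif, through which the kinase mTOR controls their translation together with that of elongation factors. Ribosome production is known to be raised in many growing tumours, and an imbalance of ribosomal proteins can stabilise the tumour suppressor p53.

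The sequences around the transcription start show what these genes share before any expression value is considered. The RefSeq table of promoters (build GRCm38.p6) listed 71 starts for 59 of the 79 genes. An uninterrupted run of at least 7 letters C or T on the gene strand, reaching into the window from 20 bases before to 10 bases after the start, was present at 52.1% of these starts and at 25.8% of all 32851 starts in the table. With the window extended to 30 bases after the start, the shares were 69.0% and 33.9%; the shorter window was taken second, after the wider one had been looked at, so that most runs lie within the stretches printed here. The letters CCGGAAG, the core of sites bound by ETS factors, were found on either strand at 35.2% of the genes' starts and 8.86% of all starts within 300 bases, and AAGATGGC, letters bound by YY1, at 9.86% and 2.75%. TATAAA on the gene strand was found at 7.04% and 8.32%. These matches describe letters in a window and not bound sites.

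Printed here are 50 bases, from 30 before to 20 after the start, for genes at both ends of the difference between combination and control tumours described further on, to set their starts side by side. Capitals mark only the longest pyrimidine run that reached the shorter window, or the first of equally long ones. Further runs of at least 7 letters are left in lower case, as in Rpl31, Rpl39 and Rps27l. The first 7 had lower levels in combination tumours than in controls and passed the test.
Rps28, chr17:33824543-33824592, minus strand: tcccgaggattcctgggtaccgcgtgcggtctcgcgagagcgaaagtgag
Rps21, chr2:180257349-180257398, plus strand: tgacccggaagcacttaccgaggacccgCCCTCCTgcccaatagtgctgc
Rpl39, chrX:37085203-37085252, minus strand: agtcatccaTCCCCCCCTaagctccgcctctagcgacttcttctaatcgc
Rpl37a, chr1:72711230-72711279, plus strand: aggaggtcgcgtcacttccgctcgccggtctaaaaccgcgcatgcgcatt
Rpl31, chr1:39367821-39367870, plus strand: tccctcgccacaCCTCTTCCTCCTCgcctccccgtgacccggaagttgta
Rpl15, chr14:18270967-18271016, minus strand: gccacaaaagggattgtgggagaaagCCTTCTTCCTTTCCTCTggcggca
Rps7, chr12:28635934-28635983, minus strand: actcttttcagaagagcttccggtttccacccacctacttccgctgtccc
The other 4 had log2 fold changes above 0 in the same comparison and did not pass it.
Rps18, chr17:33955646-33955695, minus strand: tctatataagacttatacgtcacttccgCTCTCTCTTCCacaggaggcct
Rps27l, chr9:66946056-66946105, plus strand: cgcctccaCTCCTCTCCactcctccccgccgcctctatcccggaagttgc
Rps26, chr10:128626487-128626536, minus strand: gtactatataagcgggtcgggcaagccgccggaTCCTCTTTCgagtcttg
Rpl13a, chr7:45128726-45128775, minus strand: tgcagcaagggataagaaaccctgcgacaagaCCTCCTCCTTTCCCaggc
A run of pyrimidines lay at the start in genes of both kinds, among them Rpl15 with 17 letters from position -4 and Rps18 with 11 letters from position -2, counted from +1 as the first transcribed base. No run that reached the shorter window was found at the listed starts of Rps28, Rpl37a and Rps7. The window also accepts runs that end before the first transcribed base, as does the marked run of Rpl39 (9 letters from position -21). Others begin after it, as in Rps26 (from position 4). A run counted here is therefore not the same as a messenger RNA that starts with pyrimidines. Over the tested genes with a listed promoter, the median log2 fold change of combination against control was -0.36 for the 34 genes with a run and -0.42 for the 21 without one.

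Levels between genes were compared in FPKM, which is the read count scaled to the length of the gene and to the total count of the library. The median gene stood at 133 FPKM over the 12 libraries, and 44 of the 79 were above 100 FPKM. The highest mean was that of Rps26, whose protein touches the messenger RNA where it leaves the small subunit, with 942, 1218 and 902 FPKM in combination, 772, 765 and 798 FPKM in curcumin, 1161, 915 and 799.6 FPKM in swimming and 864, 1201 and 856 FPKM in control libraries. Rps15 followed at a mean of 872 FPKM, then Rpl4 at 758, Rpl19 at 724 and Rpl41 at 659 FPKM. Among the tested genes the range was 407-fold, down to Rpl21 at 2.29 FPKM.

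Low values in this table did not always fall on genes known for restricted expression. The paralogs Rpl10l and Rpl39l, known from mouse testis, and Rpl3l, known from striated muscle, were near the floor: Rpl10l had 0 counts in all 12 libraries, Rpl39l 28 counts and Rpl3l 46 counts in all. Their broadly expressed partners stood at 202 FPKM for Rpl10, 35.3 FPKM for Rpl39 and 175 FPKM for Rpl3. Rpl24, a gene of the core large subunit, also had only 79 counts in all, and Rpl13a, whose protein is known in human cells as a translational silencer after interferon, stood at 2.53 FPKM. In all, 16 of the 79 genes were under 20 FPKM.

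Sequence shared with other genes was measured beside these levels. Of the 100-base windows of each principal transcript in the GENCODE M21 annotation, the median gene had 33.9% that occur also in another gene or pseudogene. For Rpl24 the share was 80.1%, for Rpl13a 55.2% and for Rpl21 16.7%. Over the 75 tested genes the shared percentage showed no relation to level (Pearson r -0.03 with log2 FPKM, rho 0.00), as a description over genes that share libraries. More than 20% of exonic bases were overlapped by another gene in 11 genes, 6 of which were among the 16 under 20 FPKM. How reads that fit several copies, or that lie in overlapping genes, were assigned is not given in the sources used here, and their part in the low values was not tested. The deposited length of each gene was the union of all its exons, at the median 2.01 times and at most 6.79 times its principal transcript, so FPKM understates genes with long alternative exons. The order of levels per length of the principal transcript was close to that of FPKM (rho 0.93 over 75 genes).

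**Figure D1:**
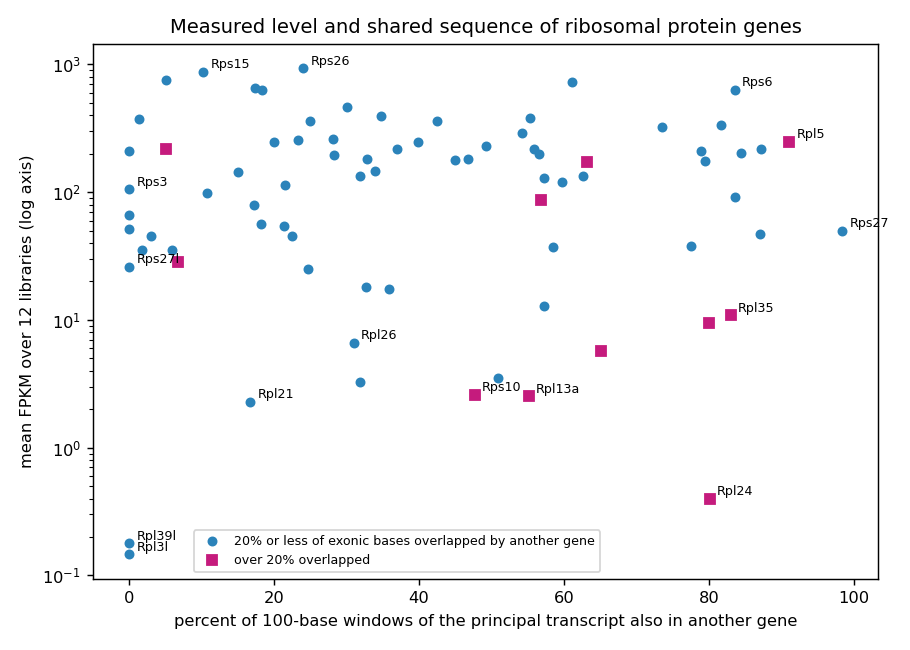
Mean FPKM over 12 libraries (log axis) against the percentage of 100-base windows of the principal transcript that occur in another gene, 1 point per ribosomal protein gene with a mean above 0. Squares are genes with over 20% of exonic bases overlapped by another gene; levels above 100 FPKM are found at low and at high shared percentages, and Rpl24, Rpl39l and Rpl3l lie under 1 FPKM.

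Several libraries stood apart before the groups were compared. Library totals ran from 15069348 to 17278826 counts. The biological coefficient of variation within a group was 6.47% in combination, 12.4% in curcumin, 16.3% in swimming and 26.7% in control libraries, while the fit uses a single estimate of the spread for each gene. Replicate libraries of a group differed by more than sampling noise in every pair, so each was kept as its own sample. Control 2 had the highest value of 12 in 19.4% of all tested genes and the lowest in 19.1%. Of the 10 listed tumour epithelial markers, 9 were tested, led by Krt18, Krt8 and Cdh1, and their summed level was 3296 to 3492 CPM in combination, 2852 to 3379 in curcumin, 3222 to 3566 in swimming and 3453 to 3540 in control libraries. Cldn7 was the untested marker.

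Ribosomal protein genes took a smaller share of counts in every combination library than in any control or swimming library, and the share was most scattered among control tumours. The share of each library's counts was 2.39%, 2.30% and 2.34% in combination, 2.54%, 2.51% and 2.39% in curcumin, 2.71%, 2.94% and 2.64% in swimming and 2.46%, 3.52% and 2.89% in control libraries. The means were 2.34% ± 0.04 in combination, 2.48% ± 0.08 in curcumin, 2.76% ± 0.16 in swimming and 2.95% ± 0.53 in control libraries (SD, n = 3 each). Without control 2 the control mean was 2.67%, below that of swimming, so the order of these 2 groups rested on that library. Curcumin libraries overlapped the controls through control 1. A share of counts also depends on the counts of all other genes. It can be lower, among other reasons, because fewer cells of a kind were present or because each held less of the RNA. In these bulk samples those 2 cannot be told apart.

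**Figure D2:**
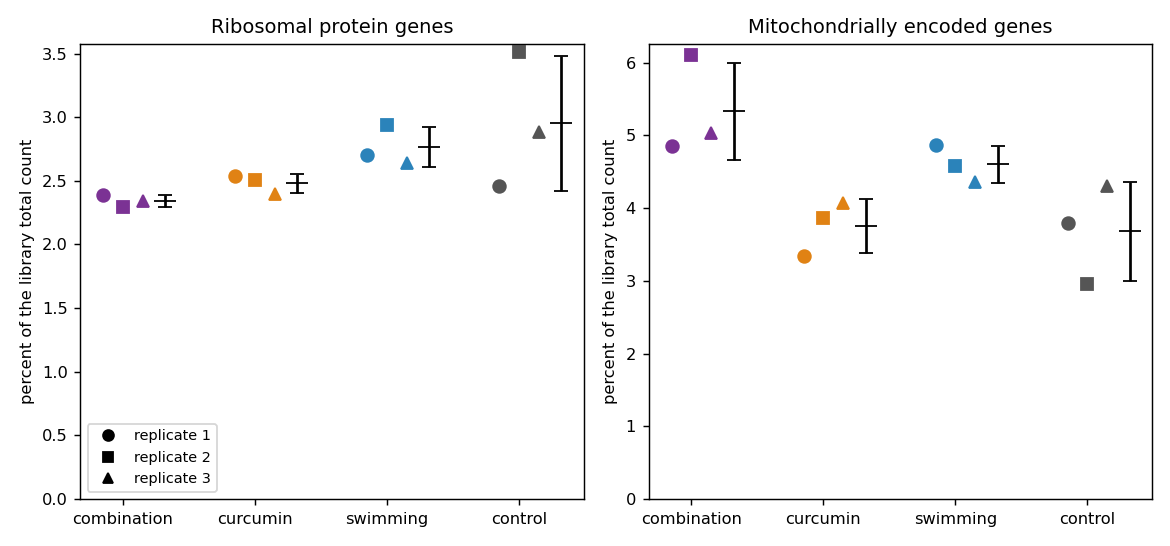
Percent of each library's total count in the 79 ribosomal protein genes (left) and in mitochondrially encoded genes (right), by group; symbols are single libraries, and the bars show the mean and SD of 3. Ribosomal protein genes took 2.30% to 2.39% in combination libraries and 2.46% to 3.52% in control libraries, and mitochondrially encoded genes took 4.86% to 6.10% in combination libraries and 2.96% to 4.30% in control libraries.

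In both subunits the combination mean was the lowest. Small subunit genes took 0.855% ± 0.006 in combination, 0.880% ± 0.029 in curcumin, 0.990% ± 0.058 in swimming and 1.07% ± 0.19 in control libraries (SD, n = 3 each). Large subunit genes took 1.49% ± 0.04 in combination, 1.60% ± 0.05 in curcumin, 1.77% ± 0.10 in swimming and 1.88% ± 0.34 in control libraries (SD, n = 3 each). Without control 2 the control means were 0.970% and 1.70%, below those of swimming in both subunits. Mitochondrial ribosomal protein genes, which build the separate ribosome inside mitochondria, took 0.177% in combination, 0.183% in curcumin, 0.172% in swimming and 0.179% in control libraries on average. Transcripts made within mitochondria took a larger share in combination than in control, at 4.86%, 6.10% and 5.03% of counts in combination against 3.79%, 2.96% and 4.30% in control libraries. Their part in the ribosomal share was not tested beyond leaving them out of the total, which gave 2.47% in combination and 3.07% in control libraries.

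Among the controls, control 2 stood apart. Control 2 held the highest value of the 12 libraries in 63 of the 75 tested genes, and combination 2 held the lowest in 34 of 75 (11.3% of all tested genes had their lowest value there). Every tested gene in swimming 2 was above its own mean over the libraries. The median SD between replicates on the log2 scale was 0.09 for ribosomal protein genes and 0.11 for all tested genes in combination, 0.08 and 0.13 in curcumin, 0.18 and 0.17 in swimming, and 0.29 and 0.23 in control libraries. Beside its ribosomal share, control 2 also had the lowest summed level of 20 cell cycle genes, at 1132 CPM against 3034 and 2738 CPM in the other controls, and of 14 skeletal muscle genes, at 118 CPM against 454 and 944 CPM. Its summed level of fibroblast markers was the lowest of the 12 libraries, at 1288 CPM against 3987 and 4858 CPM. Its mean centred log2 CPM over neutrophil markers was the highest, at 1.12 against -0.33 and -0.13. Their summed level did not set it apart, at 442 CPM against 411 and 436 CPM in the other controls and 540 to 568 CPM in combination libraries. The part of these lists in the ribosomal values was not tested.

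**Figure D3:**
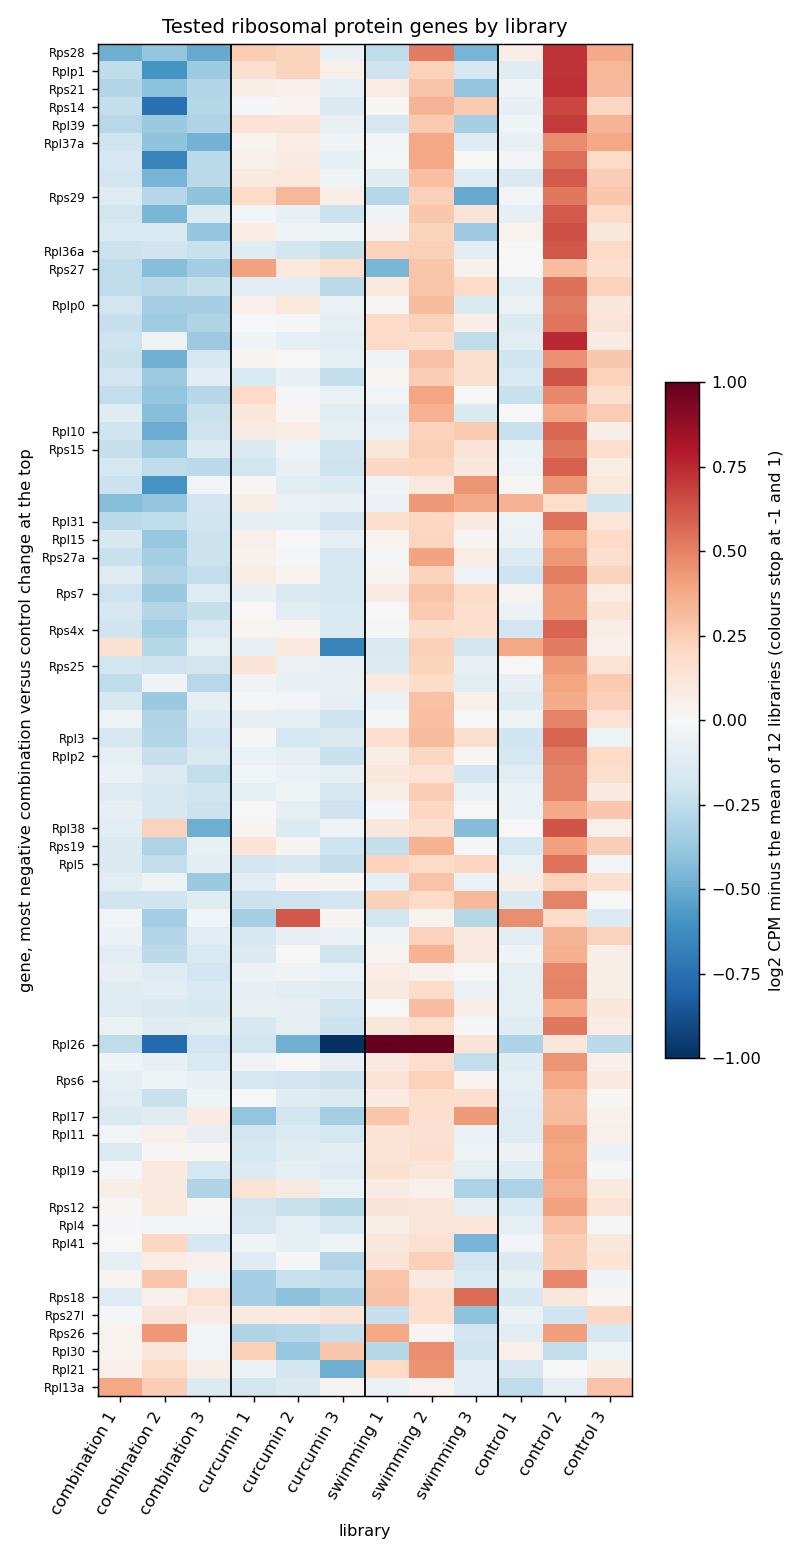
Log2 CPM minus the mean of the 12 libraries for the 75 tested ribosomal protein genes (rows, ordered by the combination against control change, with names for some of them) in each library (columns); colours stop at -1 and 1. Control 2 is the highest library in 63 of 75 rows, and the combination columns are below the mean for most genes.

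In combination tumours, 10 ribosomal protein genes fell relative to control tumours and none rose. Among the called genes were Rpl37a, Rplp1, Rps14, Rpl15, Rps7, Rps28, Rpl39, Rpl31 and Rps21, and all 10 had an adjusted p between 0.0405 and 0.05 in edgeR's quasi-likelihood test with Benjamini-Hochberg adjustment over 13638 genes. In this comparison 5.17% of all tested genes were called (2.57% as lower and 2.6% as higher), against 10 of 75 ribosomal protein genes. The median log2 fold change was -0.37 over the 75 genes and -0.02 over all tested genes, and 69 of 75 were negative against 52.8% of all tested genes. The unadjusted p was under 0.05 in 50 of 75 genes, all of them with a negative log2 fold change, against 27% of all tested genes. All combination libraries lay below all control libraries in 35 genes (15.8% of all tested genes), and the reverse held in 0 (16.3% of all tested genes).

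The acidic stalk of the large subunit, which recruits elongation factors, held one of the called genes. Rplp1, a stalk protein, had 374, 289 and 347 FPKM in combination libraries, against 414, 723 and 584 FPKM in control libraries. All 3 combination values were below the lowest control value, and the log2 fold change was -0.75 ± 0.18 (SE, adjusted p = 0.0408). Rplp0, which anchors the stalk, had 547, 487 and 497 FPKM in combination and 608, 879 and 706 FPKM in control libraries. These groups did not overlap either, with a log2 fold change of -0.50 ± 0.15 that missed the threshold (adjusted p = 0.0635). The second acidic protein gene, Rplp2, had 73.1, 65.1 and 70.1 FPKM in combination and 70.1, 109 and 93.1 FPKM in control libraries, and its groups overlapped through control 1 (adjusted p = 0.114).

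Rps28 had the most negative log2 fold change of the 75 genes, and Rps21, Rpl39 and Rpl37a were also among the most negative called ones. Rps28, a small subunit protein near the messenger RNA exit (table coordinates chr17:34038001-34043536), had 11.9, 12.4 and 11.7 FPKM in combination libraries, against 17.6, 26.9 and 22.5 FPKM in control libraries. Combination libraries were all lower, and the log2 fold change was -0.88 ± 0.23 (SE, adjusted p = 0.049). Rps21, also of the small subunit (chr2:179899170-179900238), had 40.8, 36.9 and 40.8 FPKM in combination and 49.3, 81.5 and 65 FPKM in control libraries, a log2 fold change of -0.71 ± 0.19 (adjusted p = 0.05). Rpl39, which lines the tunnel through which the new protein leaves (chrX:36346173-36349055), had 28.3, 26.1 and 27.9 FPKM in combination and 33.7, 54.8 and 45.3 FPKM in control libraries. Its log2 fold change was -0.68 ± 0.18 (adjusted p = 0.049), and the groups did not overlap. Rpl37a, a zinc-binding protein of the large subunit (chr1:72750449-72752972), had 46.5, 39.6 and 38.3 FPKM in combination and 51.3, 72.7 and 72.4 FPKM in control libraries, the smallest adjusted p of the set (0.0405) and a log2 fold change of -0.64 ± 0.15.

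Genes known from human disorders of ribosome production were among the called ones. Rps14, whose reduced dose is a feature of the human 5q- syndrome, had 119, 81.8 and 114 FPKM in combination libraries, against 133, 218 and 168 FPKM in control libraries, with a log2 fold change of -0.70 ± 0.18 (SE, adjusted p = 0.0448). Rpl15, of the large subunit (chr14:4198305-4201873), had 172, 146 and 166 FPKM in combination and 186, 248 and 229.8 FPKM in control libraries (log2 fold change -0.43 ± 0.11, adjusted p = 0.0481). Rps7 (chr12:28680853-28685952), whose protein can also bind the p53 regulator Mdm2, had 187, 164 and 197 FPKM in combination and 223, 285 and 236 FPKM in control libraries (log2 fold change -0.42 ± 0.11, adjusted p = 0.0488). In each of these 3 genes the combination libraries lay below every control. Rps19, the gene most often mutated in human Diamond-Blackfan anaemia, was not called: it had 16, 14.1 and 16.8 FPKM in combination and 15.8, 23.1 and 21.9 FPKM in control libraries, which overlapped (adjusted p = 0.195).

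Another called gene belongs to the large subunit. Rpl31 (chr1:39406923-39410992), near the tunnel exit, had 141, 139 and 147 FPKM in combination and 165, 241 and 191 FPKM in control libraries, with a log2 fold change of -0.46 ± 0.12 (adjusted p = 0.049). All 3 combination values were below the lowest control value.

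Several genes chosen by role were not called. Rpl5 and Rpl11, which with the 5S ribosomal RNA can bind Mdm2, had log2 fold changes of -0.35 ± 0.13 (adjusted p = 0.127) and -0.14 ± 0.12 (adjusted p = 0.445) between combination and control. Rps6, the small subunit protein phosphorylated downstream of mTOR, had 592, 598 and 598 FPKM in combination and 595, 810.0 and 701 FPKM in control libraries (adjusted p = 0.226). Its control 1 value lay within the combination range in FPKM and below it in TMM-scaled CPM. Rps25, needed for some internal ribosome entry sites, stood at a log2 fold change of -0.40 ± 0.12 (adjusted p = 0.0699), Rpl38, whose mouse mutant has skeletal defects, at -0.35 ± 0.21 (adjusted p = 0.293), and Rps27a, made as a fusion with ubiquitin, at -0.43 ± 0.14 (adjusted p = 0.0827). None of these passed the threshold. Without control 2 the log2 fold change of Rpl11 was 0.02. Among pairs of paralogs, Rps27 had 40.9, 35.6 and 38.2 FPKM in combination and 49.2, 59.2 and 56.9 FPKM in control libraries (log2 fold change -0.50 ± 0.16, adjusted p = 0.0761), whereas Rps27l, known as a p53 target, had 25.6, 27.7 and 27.3 FPKM in combination and 25, 22 and 31.1 FPKM in control libraries (log2 fold change 0.08 ± 0.15, adjusted p = 0.768). Of the 100-base windows of Rps27, 98.4% occur in another gene. Rpl10 and Rpl3, the partners of scarce paralogs, had log2 fold changes of -0.47 ± 0.17 (adjusted p = 0.113) and -0.37 ± 0.16 (adjusted p = 0.16), and the X-linked small subunit gene Rps4x stood at -0.42 ± 0.16 (adjusted p = 0.119).

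Log2 fold changes above 0 were found in 6 genes, none of them called: Rps18 at 0.03 ± 0.12, Rps27l at 0.08 ± 0.15, Rps26 at 0.09 ± 0.18, Rpl30 at 0.12 ± 0.21, Rpl21 at 0.14 ± 0.18 and Rpl13a at 0.19 ± 0.20 (adjusted p from 0.579 to 0.906). Rps26, the highest gene of all, had 942, 1218 and 902 FPKM in combination and 864, 1201 and 856 FPKM in control libraries, and these ranges overlapped. The log2 fold change was below 0 for Rps18 without control 1 (-0.05) or combination 3 (-0.04), for Rps26 without combination 2 (-0.07) or control 3 (-0.02) and for Rps27l without control 2 (-0.0093). Rpl30, Rpl21, Rpl13a and Rps18 were all under 20 FPKM. Over the 12 tested genes under 20 FPKM the median log2 fold change was -0.18, and over the 63 at 20 FPKM or more it was -0.40. By shared sequence the medians were -0.47 for 28 genes with under 25% of windows shared, -0.36 for 34 genes with 25% to 75% and -0.36 for 13 genes with over 75%.

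**Figure D4:**
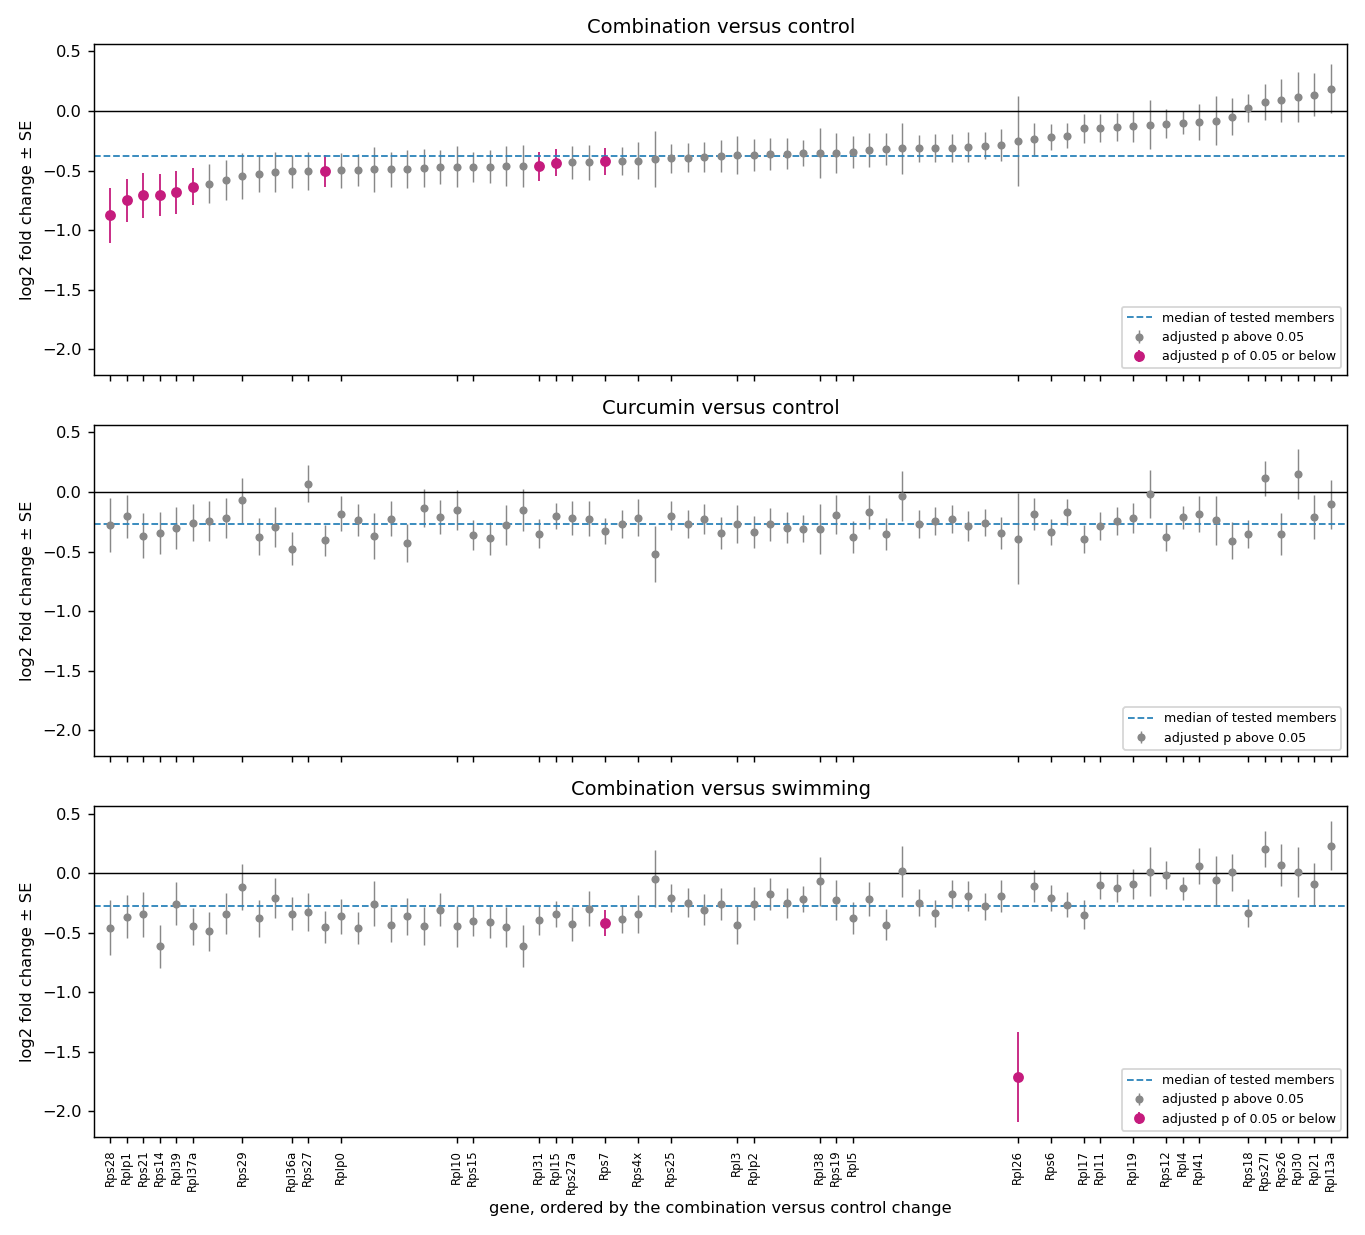
Log2 fold change ± SE of the 75 tested ribosomal protein genes in combination against control, curcumin against control and combination against swimming tumours, all in the order of the first panel, with names for some genes; large points passed an adjusted p of 0.05 and the dashed line is the median of the 75. The medians are -0.37, -0.27 and -0.28, and Rpl26 stands alone at -1.71 in the lowest panel.

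The number of called genes rested on single libraries, while the median did not lose its sign. Leaving out control 1 gave 50 called genes of 75, against 16.4% of all tested genes, leaving out swimming 2 gave 10 (5.67% of all) and leaving out swimming 3 gave 8 (5.94% of all). Leaving out any other library, whether control 2, control 3, swimming 1, or any combination or curcumin library, gave 0, with 0.029% to 3.83% of all tested genes called. DESeq2 called 30, against 12.1% of all. The median was -0.49 without control 1 and -0.22 without control 2, and without control 2 it had 62 of 75 genes negative. By gene length, the median over all tested genes under 1000 bases was -0.17, and over those of 4000 bases or more 0.01, while ribosomal protein genes stood at -0.47 (10 genes under 1000 bases) and -0.38 (6 genes of 4000 bases or more).

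Curcumin given without swimming was followed by no call, but nearly all of the genes lay below control. Under edgeR 0 of 75 ribosomal protein genes and 0% of all tested genes were called. The unadjusted p was under 0.05 in 28 of 75 genes, all with a negative log2 fold change, against 11.1% of all tested genes. DESeq2 called 0 of 75, with 0.638% of all tested genes called. The median log2 fold change was -0.27, against 0.00 over all tested genes, and 72 of 75 were negative against 49.7% of all. Curcumin libraries lay below all controls in 18 genes (7.22% of all tested genes) and above them in 0 (7.41%).

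Among the genes with the smallest p here were Rpl36a, Rpl17 and Rps12. Rpl36a, of the large subunit, had 86, 80.7 and 78.4 FPKM in curcumin and 91.5, 136 and 107 FPKM in control libraries, with a log2 fold change of -0.48 ± 0.14 (SE, adjusted p = 0.339). Rpl17, also of the large subunit, had 279.8, 317 and 289.9 FPKM in curcumin and 329, 436 and 383 FPKM in control libraries (-0.40 ± 0.12 on the log2 scale, adjusted p = 0.339). Both genes had every curcumin library below every control. Rps12, of the small subunit, had 300.3, 288 and 278 FPKM in curcumin and 300.1, 428 and 377 FPKM in control libraries (-0.38 ± 0.12, adjusted p = 0.349). In TMM-scaled CPM every curcumin library lay below every control for Rps12 as well. Without control 2 the median over the 75 genes was -0.12, with 65 of 75 negative, and without control 1 it was -0.39.

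Swimming without curcumin gave a median near 0 against control. No gene was called by edgeR, against 0.293% of all tested genes, and DESeq2 called 1, with 2.33% of all tested genes called. The unadjusted p was under 0.05 in 4 genes, 2 higher and 2 lower, against 13.1% of all tested genes. The median log2 fold change was -0.09, against -0.01 over all tested genes, and 62 of 75 were negative against 52% of all. Swimming libraries lay below all controls in 0 genes (7.24% of all tested genes) and above them in 2, Rpl26 and Rps18 (5.83%). The sign of the median depended on control 2: without that library the median was 0.07, 21 of 75 genes were negative and 3 were called, with 4.62% of all tested genes called. Without swimming 3, 1 gene was called (0.159% of all).

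Rpl26, a large subunit protein known in human cells to bind p53 messenger RNA and raise its translation, was the exception in size. It had 13.3, 21 and 5.98 FPKM in swimming and 4.48, 5.85 and 4.78 FPKM in control libraries (chr11:68792409-68797815). Every swimming library was above every control, with swimming 2 the highest by far, and the log2 fold change was 1.46 ± 0.37 (SE, adjusted p = 0.136). Across alternatives its adjusted p ran from 0.00932 (DESeq2) to 0.642, and it was under 0.05 without swimming 3 (0.0327) and without control 2 (0.0495). Rps18, often used as a reference gene, had 14.9, 13.9 and 18.4 FPKM in swimming and 11.3, 13.3 and 13.2 FPKM in control libraries (0.36 ± 0.12, adjusted p = 0.228). Rpl39 at -0.43 ± 0.18 (adjusted p = 0.33) and Rps29 at -0.43 ± 0.19 (adjusted p = 0.367) were the negative ones of smallest p, and in both the groups overlapped.

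Curcumin was also compared within swimming mice. Between combination and swimming tumours, Rpl26 and Rps7 fell and none rose, against 6.88% of all tested genes called, 3.21% as lower and 3.67% as higher. The median log2 fold change was -0.28, against 0.00 over all tested genes, with 67 of 75 negative (50.6% of all). Combination libraries lay below all swimming libraries in 45 genes (20.2% of all tested genes) and above them in 0 (20.4%). Rpl26 had 4.61, 3.12 and 4.8 FPKM in combination and 13.3, 21 and 5.98 FPKM in swimming libraries, with a log2 fold change of -1.71 ± 0.38 (SE, adjusted p = 0.0246). Rps7 had 187, 164 and 197 FPKM in combination and 221, 256 and 244 FPKM in swimming libraries (-0.42 ± 0.11, adjusted p = 0.0424). Neither gene overlapped between the groups. The count was 16 without control 1 (11.8% of all tested genes), 29 without control 2 (19.8% of all) and 3 without control 3 (6.41% of all), 1 without swimming 3 or any curcumin library, and 0 without swimming 1, swimming 2 or any combination library. The median remained between -0.32 and -0.18 in all these fits. DESeq2 called 15 genes, with 13.8% of all tested genes called, and voom with group weights called 30, with 20.5% of all.

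**Figure D5:**
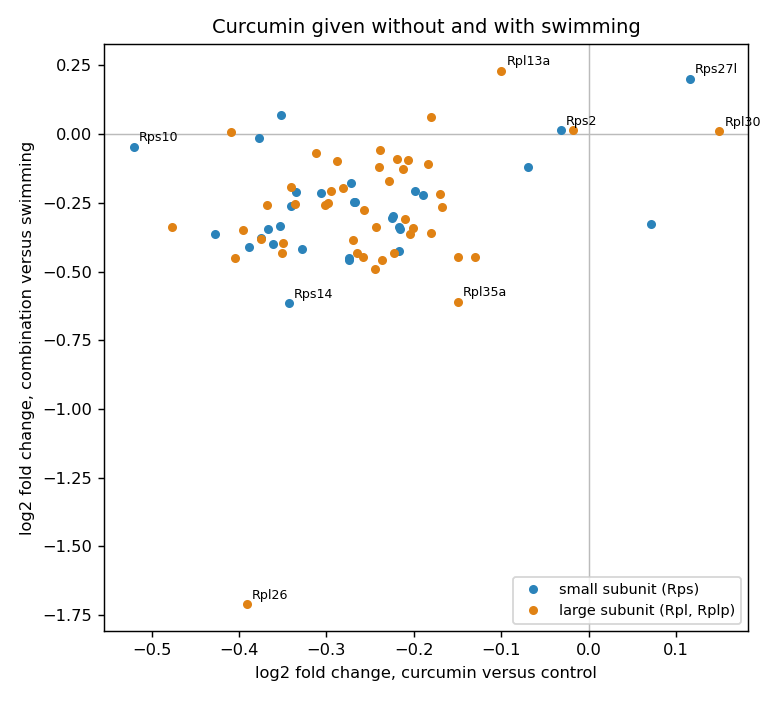
Log2 fold change of combination against swimming (vertical) and of curcumin against control (horizontal) for the 75 tested ribosomal protein genes, coloured by subunit. Values are negative in 72 genes on the horizontal axis and in 67 on the vertical axis, and both are negative in 66. Rpl26 lies at -1.71 on the vertical axis.

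Curcumin against control and combination against swimming use no library in common, so their values can be set side by side gene by gene. Of 75 genes, 68 had the same sign in both and 66 were negative in both. As 72 of 75 were negative in the first comparison and 67 in the second, a count near 66 followed from these totals alone. It therefore does not bear on agreement gene by gene. Within that shared direction the sizes were only loosely related (Pearson r 0.31, rho 0.22 over 75 genes that share the same libraries), as a description. The interaction, which tests whether the change with curcumin differs between swimming and resting mice, called 0 of 75 genes in edgeR, against 0.139% of all tested genes (0.0807% positive, 0.0587% negative). It had an unadjusted p under 0.05 in 1 gene, Rpl26 at -1.32 ± 0.53 (adjusted p = 0.394), and DESeq2 also called 0. Its median was 0.00, with 39 genes negative (49.6% of all tested genes) and 36 positive. A p above the threshold does not show that the changes were equal: without control 2 the median was -0.16, with 63 negative, and without control 1 it was 0.10, with 24 negative.

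Swimming added to curcumin gave no call. Between combination and curcumin tumours edgeR called 0 of 75, against 0.895% of all tested genes (0.521% lower, 0.374% higher), with 12 genes at an unadjusted p under 0.05 (8 lower, 4 higher, against 18.2% of all tested genes). DESeq2 called 1 gene, with 5.13% of all tested genes called, and voom with group weights called 13, with 14.2% of all. The median was -0.10, against -0.01 over all tested genes, and 56 of 75 were negative against 51.3% of all. With a loess offset on gene length the median was -0.02, and 40 of 75 were negative. Combination libraries lay below all curcumin libraries in 26 genes (18.5% of all tested genes) and above them in 9 (18.6%). Rps27 had 40.9, 35.6 and 38.2 FPKM in combination and 66.7, 53.5 and 56.4 FPKM in curcumin libraries, with a log2 fold change of -0.58 ± 0.16 (adjusted p = 0.0998), while Rps18 had 11.5, 12.7 and 13.8 FPKM in combination and 10.3, 9.61 and 10.2 FPKM in curcumin libraries, at 0.38 ± 0.12 (adjusted p = 0.131). The groups did not overlap in either gene. Swimming against control, which shares no library with this comparison, had 62 of 75 genes negative. The sign was the same in both comparisons in 59 of 75 genes (Pearson r 0.45, rho 0.50, as a description). As 62 and 56 of 75 were negative, many of these same signs followed from the totals alone. The 62 rested on control 2: without that library 21 of 75 were negative in swimming against control, and 56 in combination against curcumin.

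Other genes of translation were read from lists. Of 16 elongation factors and other genes whose messenger RNAs carry the same terminal motif, 13 had negative log2 fold changes in combination against control tumours, with a median of -0.30. Of all tested genes, 52.8% were negative in that comparison, 2.57% were called as lower and 2.6% as higher. Tpt1, a translation-linked growth protein, and the initiation factor subunit Eif3f fell (-0.61 ± 0.12, adjusted p = 0.0269, and -0.63 ± 0.15, adjusted p = 0.0412), while Btf3, which guides nascent chains, rose (0.46 ± 0.12, adjusted p = 0.0491). In curcumin against control this list had a median of -0.27, with 15 of 16 negative (49.7% of all tested genes) and 0 called by edgeR (0%). The unadjusted p was under 0.05 in 9 of the 16 genes, against 11.1% of all tested genes. In combination against swimming its median was -0.30, with 14 of 16 negative and 2 called as lower, Eif3m and Tpt1. Of all tested genes, 50.6% were negative and 3.21% were called as lower there. The list's summed level was 24384 to 25510 CPM in combination, 24222 to 25845 in curcumin, 29651 to 30632 in swimming and 26515 to 38463 in control libraries, the last from control 2. All 9 further ribosomal protein genes whose symbols fall outside the naming rule, such as Rps3a1, Rack1 and Fau, were negative in combination against control (52.8% of all tested genes). Their median was -0.33 with 0 called (5.17% of all), and 5 had an unadjusted p under 0.05, against 27% of all tested genes.

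Genes that assemble ribosomes had medians near or above 0. The 24 genes of early large subunit assembly had a median of 0.11 in combination against control tumours. Dkc1, which modifies ribosomal RNA, and Ncl, encoding nucleolin, rose (0.50 ± 0.11, adjusted p = 0.036, and 0.38 ± 0.09, adjusted p = 0.036), and none of the 24 fell. The medians were 0.03 for 22 genes of small subunit assembly with 0 called, -0.10 for 12 genes of RNA polymerase I with 0 called, -0.13 for 20 regulators around mTOR and Myc with 0 called, and -0.01 for 20 initiation factors, of which Eif5b and Eif2s2 rose. In the lists with 0 called by edgeR, the unadjusted p was under 0.05 in 5 genes of small subunit assembly, 2 of RNA polymerase I and 9 regulators around mTOR and Myc. Of all tested genes, 27% were under 0.05 in this comparison and 5.17% were called. The 77 tested mitochondrial ribosomal protein genes had a median of 0.02, 38 of them negative and 0 called, with 5 at an unadjusted p under 0.05. Among 10 tested mitochondrially encoded genes mt-Nd5, mt-Nd6, mt-Co1 and mt-Nd2 rose, and the median was 0.53; mt-Nd6 lies opposite mt-Nd5, and without a stated strand setting their reads cannot be told apart. Of 39 nuclear genes for short respiratory chain proteins 1 fell, Uqcrh, and the median was -0.14. Of 12 p53 targets Aen and Zmat3 rose and none fell (median -0.02).

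Marker lists for cells of the tumour were read in the same comparison. Cell cycle genes had a median of 0.57 in combination against control, all 20 positive and 0 called by edgeR (6 at an unadjusted p under 0.05). Of all tested genes, 52.8% were negative. The mean centred log2 CPM of the cell cycle list was 0.11, -1.20 and -0.0007 in control 1, 2 and 3, and 0.32 to 0.34 in combination libraries. Neutrophil markers had a median of -1.58, and Retnlg, S100a8 and S100a9 fell among 10 tested, although their summed level was 540 to 568 CPM in combination and 411 to 442 CPM in control libraries. Of that sum, Mmp9 made up 408 to 432 CPM in combination and 83.5 to 295 CPM in control libraries. Adipocyte markers, 6 tested of 10, had a median of 3.71, with Cfd, Cidec and Pck1 called as higher, at summed levels of 38.6 to 41.8 CPM in combination and 19.8 to 31.8 CPM in control libraries. The medians were -0.44 for 10 macrophage, -0.50 for 9 T cell, -0.43 for 2 tested B cell, 0.60 for 10 fibroblast, -1.15 for 13 skeletal muscle and -0.03 for 9 tumour epithelial markers, with 0 called by edgeR in each of these lists. Control 2 stood apart in several lists. Mean centred log2 CPM in control 1, 2 and 3 was -0.33, 1.12 and -0.13 for neutrophil markers. It was 0.05, -1.01 and 0.26 for fibroblast and 0.59, -3.09 and 1.77 for skeletal muscle markers. At an unadjusted p under 0.05 there were 5 macrophage, 0 T cell, 1 B cell, 6 fibroblast, 2 skeletal muscle and 2 tumour epithelial markers. Over all tested genes in this comparison, 27% were under 0.05 and 5.17% were called. Of 10 endothelial markers, Emcn rose (median 0.49). No marker of these lists that is in the table was at 0 in all libraries. The part of cell content in the ribosomal protein values was not tested.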

How the data were processed

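For every gene, the authors deposited its raw read count and its FPKM in each of 12 libraries. Per the labels' protocols, the authors trimmed reads for adaptors, aligned them to mm9 with HISAT2 2.0.5 and counted them per gene with HTSeq 0.9.1. Per the submitters' processing notes, cutadapt, TopHat2, HISAT2, HTSeq 0.9.1 and DESeq 1.30.0 were used with build GRCm39. The build is thus stated in 2 ways, and table coordinates are given as deposited, while promoters are on GRCm38.p6. The strand setting is not given in the sources used here. The deposited FPKM equalled count over gene length and library total in all 184877 nonzero values (relative tolerance 1e-05). Per the file headers, the length column is in bases.

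Groups were taken from the sample titles, because the treatment label of the swimming libraries names corn oil alone. The filterByExpr function removed genes with low counts (10 per library, 15 in total). With TMM factors, edgeR 4.0.16 (R 4.3.3) then gave quasi-likelihood F-tests from 1 model of the 12 libraries, which has 8 residual degrees of freedom. P-values were adjusted by Benjamini-Hochberg over all 13638 tested genes in each of 6 comparisons, and a gene was called at 0.05 or below. Log2 CPM used a prior count of 2. Overlap between groups was judged on TMM-scaled CPM without a log, so FPKM values lying close together can be in another order. The pipeline was tested on simulated data. The genes, the 20 lists of other genes and the tests were chosen with earlier results of these data known. The genes named were the called ones, the 4 of smallest p in each comparison with control, those with a sign opposite to the median in combination against control, the 5 highest and 5 lowest by level and a list chosen by role. A result of 1 gene under this rule is not reported here. Alternatives were DESeq2 1.42.0, limma 3.58.1 (voom), other scalings and filters, the groups compared alone, replicate number as a block, combination libraries summed and each library left out in turn. Scaling by the totals of tested genes and edgeR's robust spread were added after the results were seen.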

Additional observations from a re-analysis of the deposited data

How the results depend on the processing

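Medians of the ribosomal protein genes kept their sign under every alternative in combination against control, curcumin against control, combination against swimming and combination against curcumin. Leaving out each library in turn, they ran from -0.49 to -0.22, from -0.39 to -0.12, from -0.32 to -0.18 and from -0.11 to -0.07; with a loess offset on gene length the last was -0.02. In swimming against control the range was -0.21 to 0.0701 (the upper end without control 2) and in the interaction -0.16 to 0.10, each end from a fit without a control library. Counts of called genes moved far more; the share of all tested genes called in the same fit is given in parentheses. In combination against control (10 called), leaving out each library gave 0 to 50 (0.029% to 16.4%), DESeq2 30 (12.1%), limma voom with a weight per group 5 (2.95%), library totals 17 (6.14%), a loess offset on gene length 4 (5.39%) and on abundance 16 (5.26%), the 2 groups alone 0 (0.708%), the combination libraries summed 0 (0%). In combination against swimming (2 called), leaving out each library gave 0 to 29 (0.203% to 19.8%), DESeq2 15 (13.8%), voom 30 (20.5%), either loess offset 1 (7.19% on length, 7.00% on abundance), the 2 groups alone 31 (20.6%) and summing 0 (0%). In combination against curcumin (0 called), leaving out each library gave 0 to 2 (0.0145% to 5.20%), DESeq2 1 (5.13%), voom 13 (14.2%) and the 2 groups alone 19 (15.7%). In swimming against control (0 called), leaving out each library gave 0 to 3 (0% to 4.62%) and DESeq2 1 (2.33%). Curcumin against control and the interaction had 0 called under every alternative run. The cause of these differences was not tested. A summed group is a single library assumed to vary like the others. With edgeR's robust spread, 8 genes were called in combination against control.

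Replicate numbers from the titles did not pair libraries: deviations of same-numbered libraries correlated between -0.25 and 0.16 in 18 pairs, with 2 over 0.1, and 5 of 12 libraries correlated best with their own number. With replicate number as a block, 1 gene was called in combination against control (1.49%) and 1 in combination against swimming (3.75%). The share of counts per group was 2.47% in combination, 2.58% in curcumin, 2.90% in swimming and 3.07% in control libraries over nuclear genes, and 5.04%, 5.43%, 5.90% and 6.43% of summed FPKM in the same order. In combination against control, 4 uncalled named genes changed sign when a library was left out: Rps18 ran from -0.0455 to 0.10 (negative without control 1 or combination 3), Rps26 from -0.0696 to 0.30 (negative without combination 2 or control 3), Rps27l from -0.0093 to 0.20 and Rpl11 from -0.26 to 0.0191, both turning without control 2. Rpl24, Rpl39l, Rpl3l and Rpl10l had too few counts to test.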
